A study of Mus musculus with 2 samples.

Results

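The genes described here are 10 immediate early genes, a class of genes that cells transcribe within minutes of a stimulus. They are the AP-1 genes Fos, Fosb, Jun, Junb and Jund, the zinc finger gene Egr1, Ier2, the RNA-binding protein gene Zfp36, and the Krüppel-like factor (KLF) genes Klf2 and Klf6. They were chosen by name, and all 10 were found among the 31053 genes of the deposited matrices. Each was read in every cell that passed the filters, 500 or more genes seen and no more than 10% of UMIs from mitochondrial genes. A UMI is a molecular tag that lets each captured RNA be counted once.

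The cells were mouse leukemia progenitors that the labels call I1DN LSCs, sorted as cKit+ Cd11b-. Both groups carried the same I1DN leukemia, whose alleles the labels do not spell out, and differed in the 5 days of treatment that the mice received, AG-120 or vehicle. AG-120 is ivosidenib, a small molecule that blocks the mutant form of the metabolic enzyme IDH1. Each treatment has 1 library and the labels do not say how many mice it holds, so every difference is between 2 libraries, has no replicate check and carries no p-value. Intervals given below are 95% intervals for counting error only.

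The vehicle library kept 3914 of 4146 barcodes and the AG-120 library 3756 of 4016. The libraries shared 20 barcode sequences, 17 of them among kept cells. Their depth differed, with a median of 13156.5 UMIs per kept cell in the vehicle library and 25681.5 in the AG-120 library. Kit, the gene of cKit, had a UMI in 49.4% of the vehicle and 46.1% of the AG-120 cells kept, and Itgam, the gene of Cd11b, in 6.57% and 1.70%. The makeup of the cells differed strongly too. Of the measured markers, 11 of 12 erythroid ones were higher in the AG-120 library, and their summed level was 439 CPM (UMIs per 1000000 UMIs of the library's kept cells) in vehicle and 2925 CPM in AG-120 cells. Lower there by at least 1.2-fold were 7 of 7 megakaryocyte, 6 of 7 granulocyte-monocyte progenitor, 7 of 7 neutrophil, 4 of 4 stem cell and multipotent progenitor (HSC/MPP), and 4 of 4 monocyte or dendritic markers. The 1 measured marker each of B, of T or NK, and of endothelial or stromal cells was also lower, and of 5 basophil, mast cell or eosinophil markers 3 were higher and 1 was lower. In such pooled sums, fewer cells of a type and less RNA per cell cannot be told apart.

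Immediate early genes need no new protein to be switched on. Kinases of the MAPK cascade reach transcription factors already bound at their promoters, such as the serum response factor SRF with its ETS-family partners and the CREB family, and the short-lived RNAs are then removed with the help of proteins such as that of Zfp36. FOS proteins pair with JUN proteins to form AP-1, which binds DNA and drives many later genes. In blood progenitors these factors are tied to cytokine signalling, to myeloid differentiation and, in the case of several KLF and JUN proteins, to restraint of cell division. The same genes are known to be switched on by tissue dissociation and cell sorting, so their RNA in sorted cells can hold a response to handling.

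Promoter sequence was available for 8 of the 10 genes, from RefSeq on the GRCm38.p6 build, and was missing for Egr1 and Ier2. The 250 bases before the RefSeq start are shown for Fos and Jun, since these genes gave their names to the partners in AP-1 and their windows hold a match each to a core or AP-1-type motif. Both are written 5′ to 3′ on the strand of the gene. Capitals mark TATAAA in Fos, the core promoter box, and TGACATCA in Jun, a variant of the AP-1 and CREB motif known from the Jun promoter.
Fos, chr12:85473640-85473889, plus strand: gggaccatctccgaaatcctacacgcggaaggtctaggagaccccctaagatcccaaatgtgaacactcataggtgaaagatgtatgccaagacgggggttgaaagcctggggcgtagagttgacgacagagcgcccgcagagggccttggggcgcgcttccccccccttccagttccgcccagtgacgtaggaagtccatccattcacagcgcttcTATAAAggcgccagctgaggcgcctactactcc
Jun, chr4:95052223-95052472, minus strand: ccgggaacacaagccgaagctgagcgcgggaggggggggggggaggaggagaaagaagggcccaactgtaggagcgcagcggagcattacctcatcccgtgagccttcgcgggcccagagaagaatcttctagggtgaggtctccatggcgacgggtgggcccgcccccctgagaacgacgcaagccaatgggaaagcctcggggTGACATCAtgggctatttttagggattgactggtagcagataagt
A 30-base stretch is shown for Zfp36 because it was the gene with the largest difference between the libraries. Its window also held the only CArG box, the binding motif of SRF, among the 8 windows. The box is in capitals. The stretch lies inside the GENCODE bounds of Zfp36, which begin at base 28380253, upstream of the RefSeq start at base 28379228. Whether it is exon or intron there was not read.
Zfp36, chr7:28379267-28379296, minus strand: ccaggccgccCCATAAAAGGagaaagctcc

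In the Fos window TATAAA lay 33 to 28 bases before the start, and in the Jun window TGACATCA lay 45 to 38 bases before it. The Zfp36 CArG box lay 58 to 49 bases before the RefSeq start. Searched on both strands over the 32851 RefSeq windows of the same length, TATAAA was found in 12.4%, TGACATCA in 2.93% and a CArG box in 1.47%. TGACATCA was also found in the Klf6 window, 119 to 112 bases before its start. The Sp1-type motif GGGCGG was in 6 of the 8 windows and in 32.7% of all windows. GCGGGGGCG, the motif of the EGR1 protein, which can overlap GGGCGG, was in the Fosb, Zfp36 and Klf2 windows and in 2.57% of all windows. The ETS core CCGGAA was in the Zfp36 window and in 12.0% of all windows. TGACGTCA, the CREB motif, and TGACTCA, the AP-1 motif, were in 0 of the 8 windows and in 1.55% and 4.46% of all windows. The RefSeq start of Jund lies 1210 bases upstream of the GENCODE start of the gene, so its window does not adjoin that annotated start. A match is a string of letters and was not tested as a binding site.

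The first comparison asks whether progenitors from AG-120-treated mice held other levels of these genes than those from vehicle-treated mice. The summed level of the 10 genes was 1279 CPM in the vehicle library and 802 CPM in the AG-120 library, which is 1.59-fold lower (1.58 to 1.61). Of the 10 genes, 8 were lower by at least 1.2-fold, the size used here to call a difference, 0 were higher and 2 lay within it. The background has to be read beside this count, because 42.2% of the 9419 genes with at least 500 UMIs were lower by the same rule and 28.8% were higher. Over all genes with a UMI these shares were 47.7% and 32.0%. At 1.5-fold, 5 of the 10 genes were lower and 0 higher, against 27.5% and 15.6% of the 9419. The median log2 ratio was -0.58 over the 10 genes and -0.12 over all measured genes.

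Among the FOS genes, Fos (chromosome 12, 85473890 to 85477273, GRCm38) encodes the founding partner of JUN in AP-1. It stood at 35.29 CPM in vehicle and 25.75 CPM in AG-120 cells, 1.37-fold lower (1.29 to 1.45). Fosb (chromosome 7, 19302696 to 19310051) encodes a close relative, and at 13.94 and 12.04 CPM its level was 1.16-fold lower (1.06 to 1.27). The FOS genes therefore showed the smaller differences of the AP-1 genes, and Fosb did not reach the 1.2-fold size.

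All 3 JUN genes were lower in AG-120 cells. Jun (chromosome 4, 95049034 to 95052222) encodes the AP-1 subunit tied to growth and stress signals, and it stood at 423.1 CPM in vehicle and 265.9 CPM in AG-120 cells, 1.59-fold lower (1.56 to 1.62). Junb (chromosome 8, 84974484 to 84978718), whose product often counters that of Jun and limits myeloid expansion, stood at 258.8 and 168.9 CPM, 1.53-fold lower (1.5 to 1.57). Jund (chromosome 8, 70698949 to 70700616), the least stimulus-dependent of the family, stood at 152.5 and 88.76 CPM, 1.72-fold lower (1.67 to 1.77).

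Some of these genes overlap a gene on the opposite strand, and the use of strand in counting is not given in the sources used here, so reads in the overlaps cannot be told apart. Junb shares 351 bases at its end with Prdx2, an antioxidant enzyme gene abundant in red cell precursors, which stood at 410.4 CPM in vehicle and 885.6 CPM in AG-120 cells. Junos, Gm11175 and Gm44710, which overlap Jun, Jund and Zfp36, had 2 to 29 UMIs per library.

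Egr1, the zinc finger factor that SRF and the ETS factors switch on, stood at 55.12 CPM in vehicle and 47.79 CPM in AG-120 cells, 1.15-fold lower (1.10 to 1.21) and thus under the 1.2-fold size. Ier2 (chromosome 8, 84661331 to 84662852), a small nuclear protein gene of the same early wave, stood at 202.7 and 138.6 CPM, 1.46-fold lower (1.43 to 1.5). Zfp36 (chromosome 7, 28376784 to 28380253) encodes tristetraprolin, which binds AU-rich elements and speeds the decay of cytokine and immediate early RNAs. Its level was 91.22 CPM in vehicle and 31.14 CPM in AG-120 cells, 2.93-fold lower (2.80 to 3.07), the largest difference of the 10.

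The KLF genes were both lower. Klf2 (chromosome 8, 72319033 to 72321656), a factor of quiescence and of cell trafficking in lymphocytes and endothelium, stood at 12.87 and 8.784 CPM, 1.47-fold lower (1.33 to 1.62). Klf6 (chromosome 13, 5861482 to 5870394), a broadly expressed early response factor, stood at 33.21 and 14.26 CPM, 2.33-fold lower (2.17 to 2.50). Jun supplied 33.7% of the summed UMIs in vehicle and 33.2% in AG-120 cells after thinning, which tells how the sum is weighted and not how RNA levels compare between genes.

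**Figure D1:**
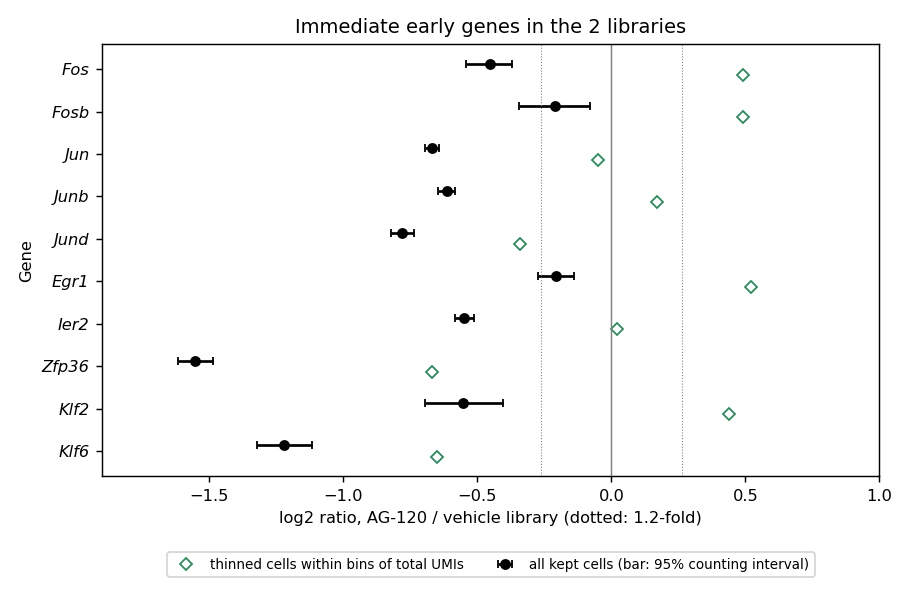
Log2 ratio of AG-120 to vehicle level for each of the 10 genes (vertical axis). Filled points with 95% counting bars are sums over all kept cells, diamonds are means of cells thinned to 6500 UMIs and compared within bins of total UMIs, and dotted lines mark 1.2-fold. All filled points lie below 0, whereas the diamonds of Fos, Fosb, Egr1 and Klf2 lie above the upper dotted line and those of Jund, Zfp36 and Klf6 below the lower one.

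Sums can hide how many cells carry a gene, so each cell was also thinned at random to 6500 UMIs, leaving out 361 vehicle and 131 AG-120 cells that had fewer. Zfp36 then had a UMI in 29.1% of the vehicle library's cells (27.6 to 30.6%) and in 16.7% of the AG-120 library's (15.5 to 17.9%), against 42.6% and 35.2% without thinning. Klf6 was seen in 18.0% and 8.50%, and Jund in 50.6% and 40.4%. For Jun the share was 47.5% in vehicle and 55.8% in AG-120 cells, which goes against its CPM, and the same held for Junb and Egr1, so no order is read from those shares. The mean of Jun was 3.32 UMIs per thinned vehicle cell with up to 65 in 1 cell, and 1.99 with up to 33 in the AG-120 library. No cell class here is known to lack these genes, so the part of free RNA in these shares could not be set beside a negative class and was not tested.

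The 10 genes were spread unevenly over cells. The thinned sum had a mean of 9.86 and a median of 5 UMIs per vehicle cell, a 95th percentile of 36.4 and a maximum of 132. The AG-120 cells had a mean of 5.98, a median of 4, a 95th percentile of 18 and a maximum of 62. Cells without any of these UMIs made up 8.98% of the vehicle and 8.88% of the AG-120 library, and the libraries lay farther apart at the upper end. The 10% of cells with most of them held 42.0% of the sum in vehicle and 35.1% in AG-120 cells.

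A cell's total UMI count moved with the sum inside each library, and this bears directly on the library difference. Thinned cells of each library were put in 5 groups of equal size by total UMIs. The shallowest vehicle group (median 8302) had a mean of 18.1 UMIs of the 10 genes, and the deepest (median 24236) had 4.09, a 4.44-fold difference (4.26 to 4.62). The same AG-120 groups (medians 14260 and 38739) had 10.5 and 3.63, a 2.90-fold difference (2.77 to 3.03). All 10 genes were at least 1.2-fold higher in the shallowest group of both libraries. Of all measured genes, 39.1% were higher and 22.6% lower there in vehicle, and 28.9% were higher and 29.8% lower in AG-120 cells. The extremes in vehicle cells were Klf2, 9.38-fold higher, and Klf6, 2.75-fold higher. Within single clusters the cells below the median of total UMIs held 1.09 to 2.21 times the sum of those above it in 7 vehicle clusters, and 0.986 to 1.5 times in 6 AG-120 clusters.

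AG-120 cells were deeper, so the libraries were also compared within bins of total UMIs, a comparison added after seeing the data. With bins weighted by the 3528 vehicle cells between 6500 and 40000 UMIs, the sum had a mean of 9.91 UMIs in vehicle and 9.86 in AG-120 cells, a ratio of 0.995. Between 6500 and 10000 UMIs the means were 17.9 in vehicle and 14.6 in AG-120 cells, a ratio of 0.817 (0.777 to 0.859). Between 20000 and 25000 UMIs they were 4.38 and 6.12, a ratio of 1.39 (1.32 to 1.47). The ratio of the sum thus lay below 1 in the shallowest bin and above 1 in the 5 others, and the difference over all cells did not hold at matched total UMIs. Lineage state moved with the library as well. With the AG-120 clusters weighted to the vehicle cluster shares the ratio of the sum was 1.32, and 8 of the 10 genes were higher and 0 lower. These values rest on 0 to 6 AG-120 cells each in clusters 1, 3, 5, 7 and 12. The share of all genes was not computed under this weighting, so the counts have no background and are not read as a result.

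At matched total UMIs the single genes parted. Zfp36 had a mean of 0.699 UMIs in vehicle and 0.440 in AG-120 cells, a ratio of 0.630. Klf6 (0.253 and 0.161, ratio 0.637) and Jund (1.13 and 0.892, ratio 0.788) were lower too. These were the 3 genes lower by both comparisons, while 37.4% of all measured genes were lower at matched UMIs. Higher were Egr1 with a ratio of 1.43, Fos with 1.41, Fosb with 1.40 and Klf2 with 1.36, a count of 4 where 25.3% of all genes were higher. Jun (0.966), Junb (1.12) and Ier2 (1.01) lay within 1.2-fold. The median log2 ratio was 0.09 over the 10 genes and -0.08 over all genes. Whether total UMIs stand for cell size, RNA content, lineage state or capture cannot be told apart here.

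**Figure D2:**
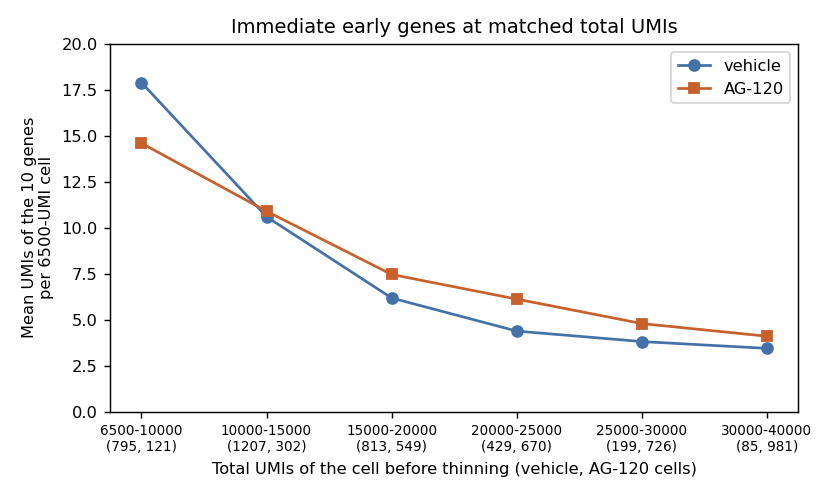
Mean summed UMIs of the 10 genes per cell thinned to 6500 UMIs (vertical axis) in bins of the cell's total UMIs before thinning (horizontal axis, with the numbers of vehicle and AG-120 cells). Both lines go down from left to right, vehicle from 17.9 to 3.44 and AG-120 from 14.6 to 4.10, and they cross between the first bins.

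Lineage states were taken from clusters of both libraries together, made without the 10 genes, the other gene lists and cell cycle genes. A cluster is called X-like only where fixed markers led it, and otherwise keeps its number. The libraries barely shared clusters. Erythroid-like cells, which carry markers of red cell precursors, made up 3328 AG-120 cells, or 88.6%, and 36 vehicle cells. The vehicle library consisted mainly of unnamed clusters and of 543 megakaryocyte-like cells.

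Among vehicle states the sum was highest in cluster 1, an unnamed state of 1030 cells led by Tox, Sox4 and Ltb, at 2742 CPM (2710 to 2775). Megakaryocyte-like cells followed at 1782 CPM, and cluster 12, led by Ccl5 and the interferon gene Ifit1, at 1378 CPM. The 398 cells of cluster 7, led by Rgs1, Ctla2a and Angpt1, stood at 1009 CPM (984 to 1033) and the 31 neutrophil-like cells at 1000 CPM (908 to 1098), whose intervals overlap, so these neighbours did not differ beyond counting error. Below them came cluster 3, led by Igfbp7 and Cd34, at 890 CPM, cluster 5, led by the mitotic genes Pimreg and Cenpf, at 691 CPM, and cluster 9 at 440 CPM. The vehicle cells of cluster 9 held granulocyte-monocyte progenitor markers at a summed 15134 CPM, against 3567 CPM over the library. The highest state exceeded the lowest 6.23-fold.

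Cluster 1 carried much of the vehicle signal. With 26.3% of the cells it held 37.9% of the library's UMIs of these genes. Its level was 643.9 CPM for Junb and 845.2 CPM for Jun, against 258.8 and 423.1 CPM over the whole library. Its median of 9356 total UMIs was the lowest of the vehicle states, and 87.6% of its thinned cells had no UMI of Mki67 or Top2a. Its heat shock sum was 9419 CPM, close to the 9644 CPM of the library, but its inducible heat shock genes were higher. Hspa1a stood at 606.7 CPM in cluster 1 and 307.2 CPM over the library, Hspa1b at 331.5 and 171.1 CPM and Dnajb1 at 427.7 and 228.5 CPM. Their part in its level was not tested.

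Among AG-120 states the highest sum was in 43 basophil, mast cell or eosinophil-like cells, at 3673 CPM (3487 to 3867), whose median of 7040 UMIs was also the lowest. Cluster 9 followed with 28 cells at 2635 CPM, then 21 neutrophil-like cells at 2082 CPM. Neutrophils carry Cd11b, which the sort gate leaves out. The granulocyte-monocyte progenitor-like state, 278 cells, stood at 1205 CPM (1178 to 1233) and megakaryocyte-like cells, 37 of them, at 1117 CPM (1034 to 1206), neighbours with overlapping intervals. Fos was 88.68 CPM and Klf2 44.90 CPM in the granulocyte-monocyte progenitor-like cells, against 19.52 and 4.902 CPM in erythroid-like cells.

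The erythroid-like clusters differed among themselves. The sum was 1683 CPM in cluster 8, 906 in cluster 0, 734 in cluster 11, 548 in cluster 2 and 424 in cluster 6, the lowest AG-120 state and 8.67-fold under the highest. Erythroid marker sums ran the other way at the ends of this order, with 1590 CPM in cluster 8 and 4889 CPM in cluster 6, and so did median total UMIs, at 16491 and 34633. Zfp36 stood at 69.15 CPM in cluster 8 and 12.35 CPM in cluster 6, Junb at 393.6 and 63.98 CPM, and Klf2 at 14.85 and 1.740 CPM. Jund differed less between the same clusters, at 139.2 and 73.68 CPM. Their heat shock sums were 12299 CPM in cluster 8 and 16033 CPM in cluster 6, while the inducible genes went with the 10 genes, Hspa1a at 748.8 and 437.6 CPM, Hspa1b at 215.8 and 130.3 CPM and Dnajb1 at 315.4 and 221.3 CPM.

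**Figure D3:**
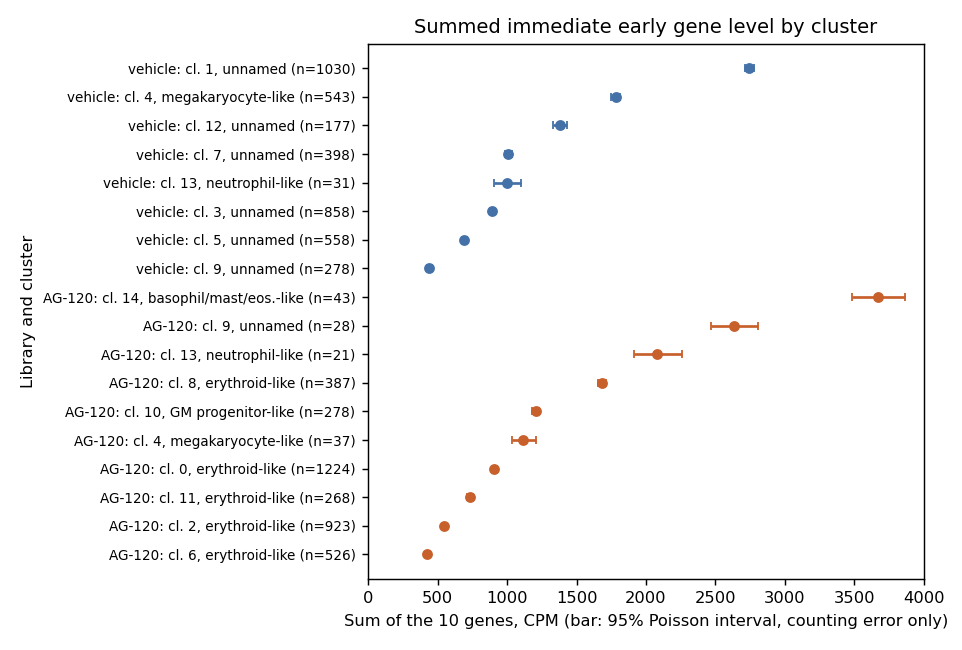
Summed level of the 10 genes in CPM (horizontal axis, with 95% Poisson bars) for each library and cluster with at least 20 cells of that library (rows, n is the number of cells). Vehicle states run from 440 CPM in cluster 9 to 2742 CPM in cluster 1, and AG-120 states from 424 CPM in erythroid-like cluster 6 to 3673 CPM in the basophil, mast cell or eosinophil-like cells.

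The genes did not share one pattern across states. Fos, Zfp36 and Klf2 were high in neutrophil-like cells, where Zfp36 reached 237.3 CPM in vehicle and 448.0 CPM in AG-120 cells and Klf2 50.21 and 89.60 CPM. In the same cells Egr1 stood at 15.98 and 28.67 CPM, under its level of 55.12 and 47.79 CPM over the whole libraries. Jund was 151.3 CPM in the mitotic cluster 5, near its vehicle level of 152.5 CPM, whereas Junb was 76.59 CPM there against 258.8 CPM. Klf6 was 48.99 CPM in cluster 5, above its vehicle level of 33.21 CPM.

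**Figure D4:**
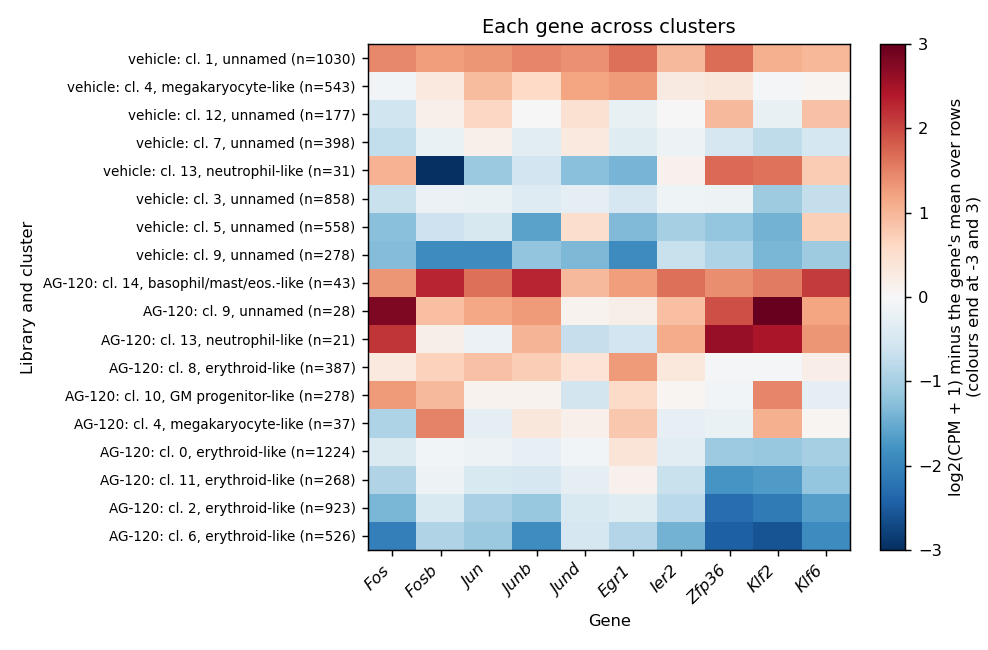
Each gene (columns) in each library and cluster (rows), as log2(CPM + 1) minus the gene's mean over the rows shown, red above and blue below that mean, with colours ending at -3 and 3. Cluster 1 of the vehicle library is red in every column, the erythroid-like clusters 2 and 6 are blue in every column, and Fos, Zfp36 and Klf2 are most red in clusters 9 and 13 of the AG-120 library.

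Only 4 states held at least 20 cells of each library, and the direction of the difference was not the same in them. In erythroid-like cells the sum was 554 CPM in 36 vehicle cells and 745 CPM in 3328 AG-120 cells, 1.34-fold higher (1.24 to 1.45). Of the 10 genes, 8 were higher and 1 was lower there, against 25.0% and 25.6% of measured genes. Only Jun (239) and Jund (123) had 100 UMIs in the vehicle cells. All the others passed the minimum of 100 UMIs only through AG-120 cells. Their vehicle UMIs were 97 (Ier2), 96 (Junb), 43 (Egr1), 18 (Klf6), 12 (Zfp36), 6 (Fosb), 4 (Fos) and 0 (Klf2). The count of genes higher is therefore not read as a result. The intervals of Fosb (0.927 to 5.53), Egr1 (0.913 to 1.71) and Klf6 (0.499 to 1.34) include 1. Junb was 1.86-fold higher (1.52 to 2.29) and Zfp36 2.40-fold higher (1.37 to 4.65) on 12 vehicle UMIs. Klf2 had 0 vehicle UMIs. With 3 vehicle UMIs assumed its ratio would be 1.88, and the lower end of its counting interval was 1.52. The vehicle erythroid-like cells lay mostly in clusters 2, 6 and 8 and the AG-120 ones mostly in clusters 0 and 2, and the vehicle cells' median was 30060 UMIs against 26662.

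In megakaryocyte-like cells the sum was 1782 CPM in 543 vehicle and 1117 CPM in 37 AG-120 cells, a ratio of 0.627 (0.579 to 0.678). There 6 of the 10 genes were lower and 2 were higher, against 35.6% and 24.5% of measured genes. Jun, at 655.6 and 280.6 CPM, had a ratio of 0.428 (0.364 to 0.5) and Jund, at 242.0 and 116.6 CPM, one of 0.482 (0.373 to 0.613). Fosb, at 15.84 and 37.18 CPM, went the other way with a ratio of 2.35 (1.41 to 3.74), and Klf2, at 14.96 and 33.80 CPM, with 2.26 (1.32 to 3.67). The AP-1 genes thus did not move as a block within this state. Its median total UMIs were 11743 in vehicle and 14988 in AG-120 cells, so the sum was higher in the shallower cells, and the part of total UMIs was not tested.

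The neutrophil-like cells stood at 1000 CPM in 31 vehicle and 2082 CPM in 21 AG-120 cells, a ratio of 2.08 (1.84 to 2.36). Of the 10 genes only 4 had the 100 UMIs asked for here, and these 4, Jun, Junb, Ier2 and Zfp36, were higher, as were 38.0% of measured genes against 16.4% lower. In cluster 9 the sum was 440 CPM in 278 vehicle and 2635 CPM in 28 AG-120 cells, a ratio of 5.99 (5.55 to 6.46), and the 6 genes with enough UMIs were all higher, against 25.8% of measured genes higher and 43.4% lower. The cells of this cluster were not alike in the libraries. Prg2, an eosinophil granule gene, stood at 225.0 CPM in its vehicle and 27422 CPM in its AG-120 cells, Epx at 0 and 316.8 CPM, and Cd74, an antigen presentation gene, at 325.9 and 5270 CPM. Median total UMIs were 17684 in the vehicle and 12385 in the AG-120 cells of cluster 9, so here too the sum was higher in the shallower cells, and they were 12724 and 12244 in neutrophil-like cells. The part of these markers and of total UMIs in the difference was not tested. The heat shock sum had ratios of 1.01, 1.16, 1.41 and 0.990 in the erythroid-like, megakaryocyte-like and neutrophil-like cells and cluster 9. Hspa1a alone stood at 638.5 CPM in vehicle and 526.8 CPM in AG-120 erythroid-like cells, at 449.2 and 431.0 CPM in megakaryocyte-like cells, at 15.98 and 340.5 CPM in neutrophil-like cells and at 119.9 and 460.4 CPM in cluster 9. It was thus higher in AG-120 cells of the same states, neutrophil-like cells and cluster 9, in which the sum of the 10 genes differed most upward, and its part was not tested.

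The next comparison sets the cells lowest in the proliferation genes Mki67 and Top2a, whose products mark and serve dividing cells, beside the others. Lowest cells had 0 UMIs of both after thinning, which were 1699 of 3553 cells in vehicle (47.8%) and 796 of 3625 in AG-120 (22.0%). Vehicle cells without these UMIs had a mean of 13.7 UMIs of the 10 genes and the others 6.30, a 2.18-fold difference (2.13 to 2.23). AG-120 cells had 7.82 and 5.46, a 1.43-fold difference (1.39 to 1.47). The sum was thus higher in cells without proliferation transcripts in both libraries, and whether the libraries differ in this was not tested.

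All 10 genes were at least 1.2-fold higher in the lowest vehicle cells, where 18.5% of measured genes were higher and 22.6% lower. The largest differences were those of Junb, 2.95-fold (2.80 to 3.11), of Egr1 and Zfp36, 2.88-fold each, and of Fos, 2.74-fold (2.38 to 3.17). Jund, at 1.56-fold (1.47 to 1.67), and Klf6, at 1.31-fold (1.15 to 1.5), had the smallest. The median log2 ratio was 1.23 over the 10 genes and -0.02 over all measured genes.

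In AG-120 cells 8 of the 10 genes were higher in the lowest cells and 0 were lower, against 14.3% and 15.8% of measured genes. Klf2 was 1.92-fold higher (1.46 to 2.50), Zfp36 1.86-fold (1.62 to 2.14), Egr1 1.70-fold (1.51 to 1.91) and Junb 1.64-fold (1.54 to 1.75). Jund, at 1.13-fold, and Klf6, at 1.19-fold, stayed within 1.2-fold. Jund and Klf6 therefore had the smallest differences of the 10 in both libraries. The median log2 ratio was 0.64 over the 10 genes and -0.03 over all.

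The vehicle level went down over the first steps of proliferation transcripts, and the AG-120 level only over the first one. Vehicle means were 13.7 UMIs at 0 Mki67 and Top2a UMIs, 9.14 at 1 to 2, 5.32 at 3 to 5, 4.20 at 6 to 10, 4.37 at 11 to 20 and 5.71 in the 42 cells over 20. AG-120 means were 7.82, 5.35, 5.27, 5.85 and 7.11 up to 11 to 20 UMIs. Jund and Klf6 did not keep going down in vehicle cells, with Jund at 1.39, 0.660 and 1.05 and Klf6 at 0.287, 0.135 and 0.324 UMIs at 0, 3 to 5 and 11 to 20 proliferation UMIs. Junb went from 3.1 to 0.898 and 0.372 over the same steps.

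Total UMIs and lineage state moved with this split too. The lowest cells had a median of 11566 UMIs against 16852 in vehicle, and 19950 against 27889 in AG-120 cells. An alternative added after seeing the data weighted the other cells to the total UMIs of the lowest ones. The sum was then 1.57-fold higher in the lowest vehicle cells. In AG-120 cells its ratio was 1.12, within 1.2-fold. Vehicle ratios then ran from 1.04 for Klf6 to 2.11 for Zfp36, while 12.5% of all genes were higher and 28.4% lower. AG-120 ratios were 0.932 to 0.973 for Fosb, Jun, Jund and Klf6 and 1.21 to 1.42 for the other 6, while 7.12% of all genes were higher and 15.7% lower.

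Within the 5 groups by total UMIs the vehicle ratio was 1.63, 1.56, 1.53, 1.51 and 1.25 from the shallowest to the deepest cells. The AG-120 ratios were 1.28, 0.880 (0.822 to 0.940), 1.05, 0.935 and 0.814 (0.692 to 0.952). In that library the lowest cells thus exceeded the others by 1.2-fold only in the shallowest group. In the deepest group they were lower than the others by at least 1.2-fold. With the other cells weighted to the cluster makeup of the lowest ones the ratio was 1.25 in vehicle and 1.23 in AG-120 cells. Cluster 1 weighed on the vehicle value, which was 1.82 without it. Inside cluster 1 the ratio was 1.07 (1.01 to 1.12), and in the other vehicle clusters with enough cells it was 1.41 to 1.76, for example 1.59 in megakaryocyte-like cells and 1.76 in cluster 7. AG-120 clusters ranged from 1.02 to 1.32.

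**Figure D5:**
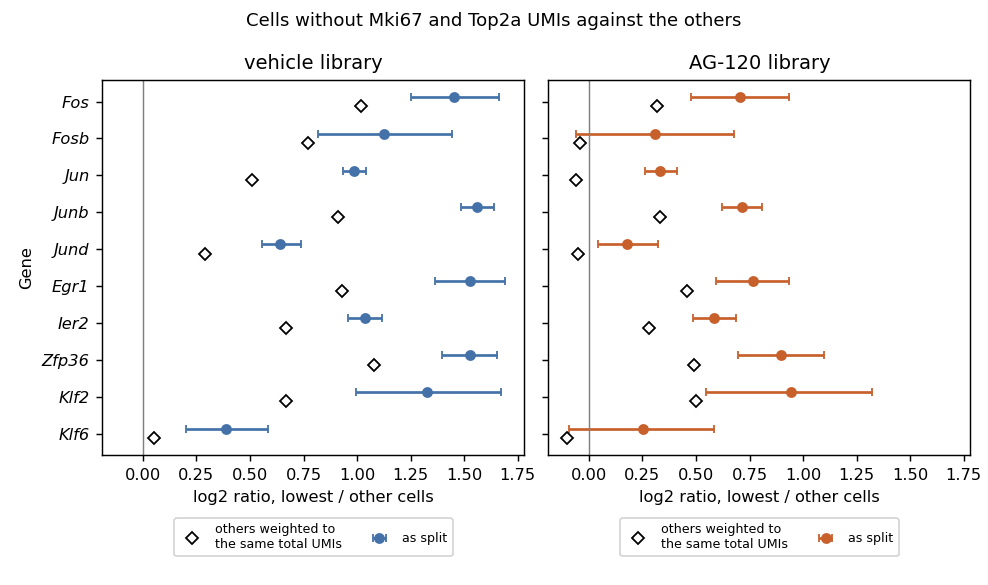
Log2 ratio of each gene between cells without Mki67 and Top2a UMIs and the other cells (horizontal axis), in the vehicle (left) and AG-120 (right) library. Filled points with 95% counting bars are the split as made, and diamonds weight the other cells to the total UMIs of the lowest cells. All filled points lie above 0, and the AG-120 diamonds of Fosb, Jun, Jund and Klf6 lie below 0.

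Handling stress is known to raise these genes together with heat shock genes, so the heat shock list was read beside each comparison. Over the libraries its sum went against the 10 genes, at 9644 CPM in vehicle and 14728 CPM in AG-120 cells, a ratio of 1.53. Of its 13 genes 7 were higher and 1 was lower, against 28.8% and 42.2% of all measured genes, with a median log2 ratio of 0.52. The mitochondrial chaperonin genes led, Hspd1 with 387.2 and 1185 CPM (3.06-fold higher) and Hspe1 with 536.5 and 1311 CPM (2.44-fold higher). Hspa1a, the inducible HSP70 gene, stood at 307.2 and 524.0 CPM (1.71-fold higher), whereas its neighbour copy Hspa1b stood at 171.1 and 144.1 CPM, and reads of these near-identical genes may be split uncertainly. Dnajb1, at 228.5 and 230.7 CPM, lay within 1.2-fold, and Dnajb4 was 1.29-fold lower. Hsp90ab1 (3417 CPM), Hspa8 (2297 CPM) and Hsp90aa1 (1548 CPM) made up most of the heat shock sum in vehicle cells. The sum therefore says little of the scarcer inducible genes.

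In the proliferation split the heat shock sum did not separate the cells, with ratios of 0.966 in vehicle and 0.949 in AG-120 cells. Single inducible genes did in vehicle cells, Hspa1a by 2.07-fold (1.98 to 2.17), Hspa1b by 1.86-fold and Dnajb1, an HSP70 co-chaperone, by 1.76-fold. Their AG-120 ratios were 1.26, 1.12 and 1.15. Hspb1 was 4.85-fold higher (3.92 to 6.02) in the lowest AG-120 cells. Mitochondrial UMI shares were alike, with medians of 3.22% in the lowest and 2.89% in the other vehicle cells and 2.59% and 2.51% in AG-120 cells. With 1 sort per treatment, a handling response and a response in the animal cannot be told apart.

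Across thinned cells the 10 genes varied together, given here as a description since the cells share a library and their depth. The strongest pair was Jun and Junb, with Pearson r of 0.415 over 3553 vehicle and 0.344 over 3625 AG-120 cells. Junb with Egr1 had 0.380 and 0.287, and Junb with Zfp36 0.376 and 0.259. Pairs with Klf6 were among the weakest, such as Egr1 and Klf6 with 0.0350 in AG-120 cells. The sum of the 10 genes had r of 0.644 and 0.457 with the other immediate early list, 0.245 and 0.0357 with the heat shock list, and -0.414 and -0.338 with the log of total UMIs.

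By the mean of r over the libraries, the gene outside the 10 most like their sum was Ier5, an immediate early gene of the Ier2 family, with 0.550 in vehicle and 0.326 in AG-120 cells. Next were Dnajb1 (0.476 and 0.294), the polyubiquitin gene Ubb (0.329 and 0.374) and the MAPK phosphatase gene Dusp1 (0.402 and 0.284). Ppp1r15a, Rhob, Pnrc1 and Hspa1a completed the 8 genes, with mean r of 0.339, 0.339, 0.337 and 0.329. They thus included both immediate early and stress-induced genes.

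Other genes of the pathway were read from lists, whose counts stand against 42.2% of all measured genes lower and 28.8% higher in the AG-120 library. Upstream, 13 of 21 kinases and transcription factors were lower in AG-120 cells, 3 were higher, and the median log2 ratio was -0.70. Elk3, an ETS partner of SRF, stood at 26.08 and 2.779 CPM (9.39-fold lower), Mef2c at 105.7 and 17.87 CPM (5.91-fold lower), the ribosomal S6 kinase gene Rps6ka1 at 84.71 and 15.39 CPM (5.50-fold lower) and the SRF coactivator gene Mkl1 at 27.58 and 6.244 CPM (4.42-fold lower). Srf itself, at 6.099 and 7.233 CPM, lay within 1.2-fold, while the stress kinase gene Mapk9 was 2.29-fold higher. Srf and Mapk9 lie outside the naming rule and were picked after their values were seen.

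Genes listed for feedback of the MAPK cascade were lower in 6 of 6 measured cases, with a median log2 ratio of -1.34. The list holds the ETS-family transcription factor genes Etv4 and Etv5 beside inhibitors of the cascade such as Dusp6. Etv4 was 4.23-fold lower, the ERK phosphatase gene Dusp6, at 32.59 and 9.960 CPM, 3.27-fold lower and Dusp5 3.20-fold lower. Of 12 other immediate early genes 9 were lower and 1 was higher, with a median of -0.53. Csrnp1 was 4.27-fold lower, the antiproliferative gene Btg2 4.07-fold lower and Dusp2 3.92-fold lower. The exception was Myc, the growth factor response oncogene, at 164.3 and 344.0 CPM, 2.09-fold higher.

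Of 6 AP-1 partner genes 4 were lower and 0 were higher, against 42.2% and 28.8% of all measured genes. Their median was -0.45, with Atf7 1.83-fold and Batf 1.76-fold lower. Zfp36l2, the close relative of Zfp36, stood at 425.6 and 196.0 CPM (2.17-fold lower), while Zfp36l1, at 46.62 and 49.85 CPM, lay within 1.2-fold. The other KLF genes went against Klf2 and Klf6, with 7 of 9 higher, 2 lower and a median of 0.75. Klf1, the master factor of red cell genes and also an erythroid marker here, stood at 16.22 and 195.7 CPM (12.1-fold higher), and Klf9 at 0.6223 and 7.296 CPM (11.7-fold higher). Klf7 was 1.69-fold and Klf10 1.41-fold lower.

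Known targets of the KLF2 protein were lower in 4 of 4 measured cases, with a median log2 ratio of -2.72. S1pr1, the receptor for exit from tissue, stood at 16.18 and 1.957 CPM (8.27-fold lower), Cd69 at 56.69 and 10.78 CPM (5.26-fold lower) and Itgb7 at 50.53 and 24.89 CPM (2.03-fold lower). All of these list values are library sums, so they move with the erythroid-like share of 88.6% in the AG-120 library, and their part within states was not tested.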

How the data were processed

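Single-cell RNA from 2 libraries, vehicle and AG-120, was read as raw UMI counts, which the authors deposited as whole numbers per gene and barcode without normalization, per the file headers. Tools named in the submitters' processing notes are Cell Ranger 3.1.0 and Seurat 4.0.4, with the build mm10/GRCm38, and the matrix headers name version 3.0.2. The labels' protocol names a 5′ kit and the design text a 3′ platform. Gene positions are from GENCODE M21 (GRCm38) and promoters from RefSeq (GRCm38.p6).

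Cells with 500 or more genes and no more than 10% mitochondrial UMIs were kept, and CPM is UMIs per 1000000 over the kept cells of a library. No doublet caller was run. Ratios carry exact conditional binomial intervals, levels exact Poisson intervals and shares Clopper-Pearson intervals, all at 95%. Higher and lower mean 1.2-fold or more. A gene was measured with at least 500 UMIs over both libraries, or 100 within states, splits and bins. Cells were thinned without replacement to 6500 UMIs. Clustering (scanpy 1.11.5, leidenalg 0.10.2) used 2000 variable genes, 30 principal components, 15 neighbours and resolution 1.0. A cluster was named where at least 3 markers and 50% of a list were on and led it, and its name was dropped where its class markers summed no higher than in the library's cells outside the class, a step added after seeing the data.

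The 10 genes, the lists and the naming rule were chosen with earlier results of these data known. The rule names all 10 genes, up to 6 genes per list with the largest ratios and the 8 genes most like the sum. Of the genes it names, 1 is not reported here. Tested on simulated data of 9419 genes, the interval held the true ratio for 95.1% of 9219 unchanged genes. Of genes changed 1.5-fold or more 100% were called, and of those changed 1.2-fold 46%. The simulated counts held Poisson counting error only, the error that the interval assumes. This test therefore cannot tell how the intervals hold against the spread between cells or libraries. Alternatives were other weights of cells, thinning, scaling, filters, fold, cluster settings and matched total UMIs.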

Additional observations from a re-analysis of the deposited data

Results flagged for a closer look

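The difference between the libraries in the sum of the 10 genes was not in the same direction in the 4 states that both libraries held. The ratio of AG-120 to vehicle was 5.99 in cluster 9, 2.08 in neutrophil-like cells and 1.34 in erythroid-like cells, and it was 0.627 in megakaryocyte-like cells. These were singled out because the states moved in opposite directions with counting intervals that do not overlap. The cells of cluster 9 were not alike in the libraries, with Prg2 at 225.0 CPM in vehicle and 27422 CPM in AG-120 cells. Its ratio of 5.99 is therefore not one between like cells. The difference between the states was not tested, since each state has 1 library per treatment, and 3 of the 4 rest on 21 to 37 AG-120 cells and the erythroid-like one on 36 vehicle cells.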

How the results depend on the processing

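No paired analysis was possible because each treatment has 1 library. The ratio of the summed level, AG-120 to vehicle, was 0.627, and 0.584 with each cell weighted equally, 0.607 with cells thinned, 0.684 with the median gene set to 1, 0.602 without the 5% of cells with most UMIs and 0.641 without the 1% with the highest share of these genes. It was 0.995 within bins of total UMIs and turned to 1.32 with clusters weighted to the vehicle shares. Of the 10 genes, 8 were lower at first (42.2% of all measured genes), 5 by 1.5-fold (27.5%), 3 within bins (37.4%) and 0 with cluster weights. Higher under the last 2 settings were 4 (25.3% of all measured genes) and 8. No share of all genes was computed with cluster weights, here or in the split by Mki67 and Top2a below. Counts of genes with cluster weights therefore have no background. Among genes called lower, those that turned direction with cluster weights were Fos (2.90), Junb (1.52), Jund (1.09), Ier2 (1.26), Zfp36 (1.60), Klf2 (3.70) and Klf6 (1.57), and within bins Fos (1.41), Junb (1.12), Ier2 (1.01) and Klf2 (1.36). Fosb (0.864) and Egr1 (0.867), not called at first, also went above 1, to 2.24 and 1.83 with cluster weights and to 1.40 and 1.43 within bins. Of 80 single-gene values under 8 alternatives, 38 stayed within their error, 31 moved and 11, of called genes, reversed. The vehicle ratio of cells lowest in Mki67 and Top2a to the others, 2.18, was 2.46 unthinned, 1.57 with the lowest set by rank, 2.39 when thinned to 3000 UMIs, 1.25 with cluster weights (5 genes higher), 1.57 at matched total UMIs and 1.82 without cluster 1. The AG-120 ratio, 1.43, was 2.28, 1.36, 1.38, 1.23 and 1.12 under the first 5 of these, and 1.68 with Cenpf and Birc5 added. When set by rank, the lowest vehicle cells were a random part of the 47.8% with 0 UMIs, so the others held such cells too. The highest to lowest state ratio was 5.53, 7.08 and 5.91 in vehicle and 3.48, 9.79 and 10.8 in AG-120 cells at resolution 0.5, resolution 1.5 and 3000 variable genes. The cause of these shifts was not tested. Values of small states are limited by their few cells, and all intervals by counting error only.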
